A study of Homo sapiens with 3 samples.

Results

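The proteasome genes comprised every non-control probe target whose symbol began with PSM, followed by a letter from A to G and a number, and each gene was read from its brightest probe. The rule found 48 genes among the 41810 gene names on the arrays, and it used no measured change. HCT116, a colorectal carcinoma cell line, was profiled by 1-colour Agilent array as 3 samples of total RNA, with 1 array per group. PRMT1-KD1 and PRMT1-KD2 were transfected with different RNA interference reagents against PRMT1, an arginine methyltransferase, and NC received a scrambled control. The study's methods give these as siRNA delivered with a Lipofectamine reagent, while its results also speak of short hairpin RNAs. The comparisons asked how mRNA levels differed when PRMT1 was depleted, and KD1 and KD2 were both read against the same NC array. With 1 array per group there was no replicate check, so no test was run and no p-value is given. The SMARCA4 knockdowns and a further NC culture of the study were not analysed here.

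The proteasome is the protease that degrades most ubiquitin-tagged proteins in the cytosol and nucleus. Its barrel-shaped 20S core holds the proteolytic sites of the beta subunits inside a chamber that is gated by the alpha rings. A 19S cap binds ubiquitin chains, removes them, unfolds the substrate with a ring of AAA ATPases and threads it into the core. Interferons induce beta subunits that take the place of the constitutive catalytic ones and give the immunoproteasome. NFE2L1 is known as the transcription factor that raises proteasome genes together when proteasome activity is limiting.

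PRMT1 itself was measured at 6.03 on the log2 scale in NC, 2.75 in KD1 and 1.48 in KD2, which left 10.3% and 4.26% of the NC signal. All log2 levels are relative to the 75th percentile of that array. All 6 epithelial and intestinal markers (EPCAM, KRT8, KRT18, KRT19, CDH1 and CDX2) were well above background on every array. Among markers of other cell types, CD3E and PECAM1 were above background on none, PTPRC was above background on KD2 alone, and COL1A1 and ALB were above background on all 3. The share of probes above background was between 40.8% and 42.5%, and no spot was saturated. KD1 carried 141 spots marked as non-uniform, against 6 in NC and 5 in KD2.

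Of the 48 proteasome genes, 47 gave a usable value on all arrays. PSMG3, which encodes a chaperone of alpha ring assembly, was left out because its only KD1 spot was marked as non-uniform. Its levels with that spot kept were 4.64 in NC, 4.16 in KD1 and 4.35 in KD2. PSMA8, the testis alpha subunit, PSMB11, the thymus beta subunit, and PSMB8, an interferon-induced subunit, were not well above background on any array. The other 44 genes were well above background on all 3 arrays.

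Probe sequences are shown for PSMB9, PSMC3, PSMC6 and PSMD6, genes read by 1 probe each, of which PSMD6 fell just short of 1.5-fold. Each sequence is 60 bases and is given 5′ to 3′ as deposited, in lower case. The PSMB9 probe lies at chr6:32823918-32823977 on the plus strand, PSMC3 at chr11:47444434-47444493 on the minus strand, PSMC6 at chr14:53187845-53187904 on the plus strand and PSMD6 at chr3:64004291-64004350 on the minus strand, all in hg19.
PSMB9: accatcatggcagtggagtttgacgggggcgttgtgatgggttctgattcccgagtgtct
PSMC3: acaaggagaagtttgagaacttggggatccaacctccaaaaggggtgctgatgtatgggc
PSMC6: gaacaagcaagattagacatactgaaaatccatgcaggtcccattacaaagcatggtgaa
PSMD6: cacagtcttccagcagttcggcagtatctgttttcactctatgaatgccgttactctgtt

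Few proteasome genes passed 1.5-fold, a log2 difference of 0.585. Against NC, 2 of the 44 were lower in KD1 (PSMB9 and PSMB3), where 14.0% of all 19231 genes measured were, and 2 were higher (PSME4 and PSMC6), where 12.4% of all genes were. In KD2, 3 were lower (PSMC3, PSMB9 and PSMC1) beside 10.6% of 19421 genes, and 1 was higher (PSME4) beside 9.68%. Together 9.09% of the proteasome genes were past 1.5-fold in each knockdown, against 26.4% of all genes in KD1 and 20.2% in KD2. With spike-in scaling the order was turned in KD1, where 68.2% of the proteasome genes and 51.3% of all genes were past 1.5-fold, but not in KD2, with 9.09% and 26.2%. Over 2249 other genes with a mean signal between the quartiles of the proteasome genes, the share past 1.5-fold was 15.2% in each knockdown. PSMB9 was the only proteasome gene past 1.5-fold below NC in both knockdowns, beside 5.62% of all 18602 genes measured in both, and PSME4 the only one above, beside 4.87%.

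The median log2 difference of the 44 genes was 0.05 in KD1 and -0.05 in KD2, while all genes measured had medians of -0.07 and -0.05. The lower and upper quartiles of the proteasome genes were -0.11 and 0.18 in KD1. In KD2 they were -0.30 and 0.08. In KD1, 28 genes were above NC and 16 below, and in KD2, 19 were above and 25 below. The KD2 median changed sign under 4 of 11 other ways of processing, whereas the KD1 median stayed above 0 in all 11. The extraction software's own error for a difference between a pair of spots was 0.20 for the median gene, and it covers error within an array only.

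**Figure D1:**
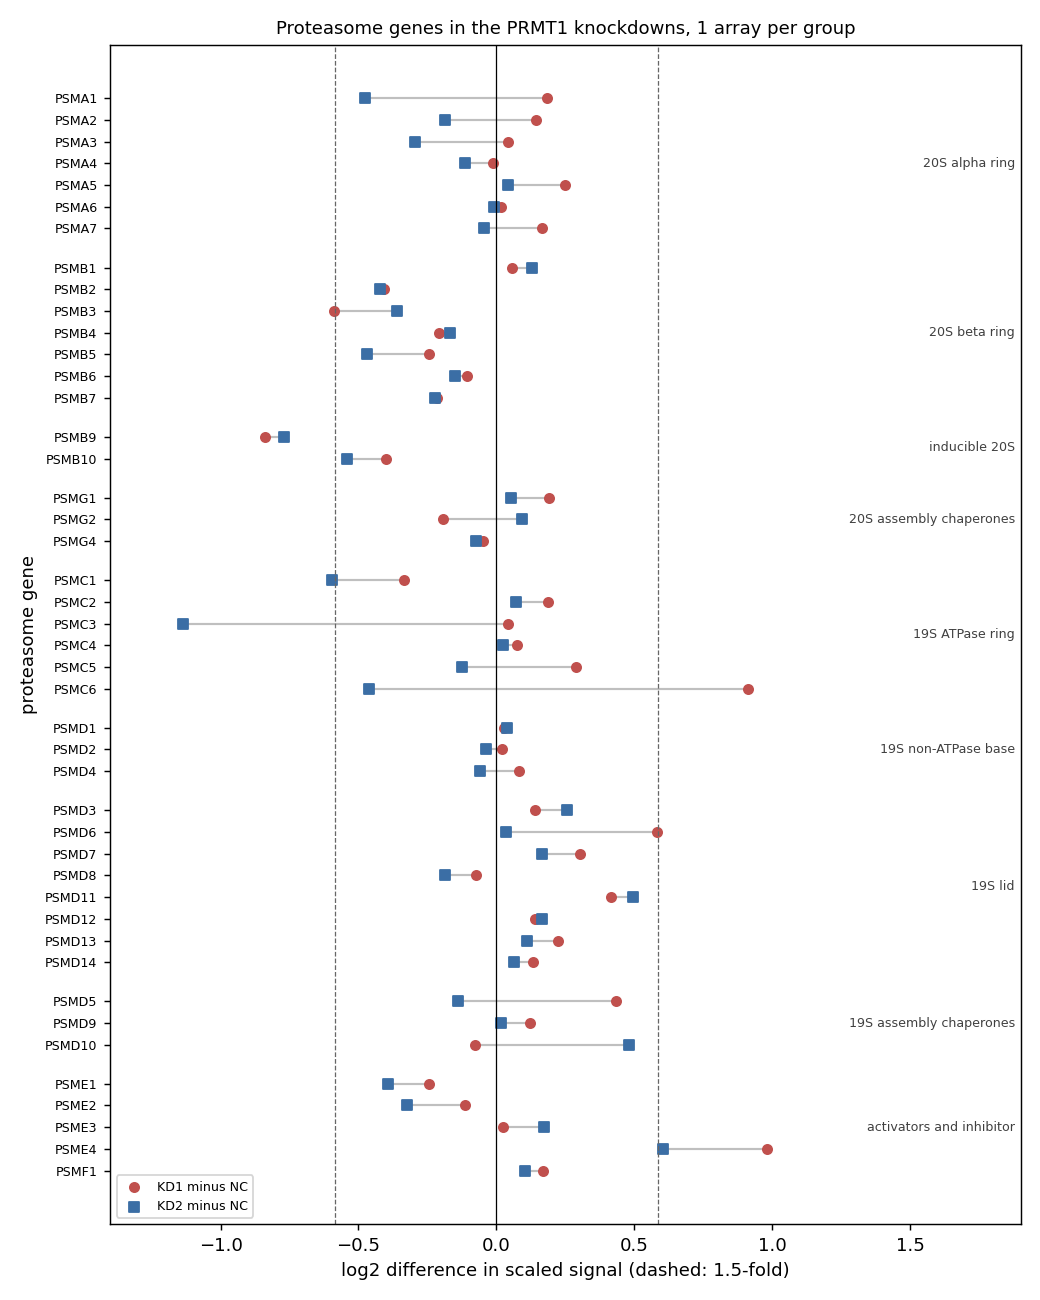
Log2 difference of each measured proteasome gene from NC in KD1 (circles) and KD2 (squares), with genes grouped by subcomplex and dashed lines at 1.5-fold. PSMB9 lies past the lower line and PSME4 past the upper line in both knockdowns, and PSMC3 and PSMC6 show the widest gaps between KD1 and KD2.

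The beta ring of the 20S core, which carries the catalytic sites, was below NC for 6 of 7 genes in both knockdowns. Its medians were -0.22 in KD1 and -0.22 in KD2. However, the KD1 median turned to 0.01 with quantile normalization and 0.06 relative to genes of like brightness. It was 0.20 unscaled and 0.43 with spike-in scaling. The KD2 median shrank to -0.07 with quantile normalization and -0.02 relative to genes of like brightness. In each of these 4 genes were below 0 and 3 above, and with spike-in scaling the KD2 median was 0.07. PSMB5, the chymotrypsin-like subunit, measured 7.85 in NC, 7.60 in KD1 and 7.38 in KD2. PSMB6, the caspase-like subunit, measured 7.84, 7.73 and 7.69 in the same order. PSMB7, the trypsin-like subunit, measured 8.77, 8.56 and 8.55. All 3 catalytic subunits were highest in NC, by at most 0.47, and none passed 1.5-fold. Over the 11 other ways of processing the KD1 sign turned in 3 for PSMB5, 6 for PSMB6 and 4 for PSMB7, and the KD2 sign in 0, 3 and 1. PSMB3, a structural subunit, was at 8.14 in NC, 7.55 in KD1 and 7.78 in KD2, a difference of -0.59 in KD1 that lay just past the threshold and stayed past it in 5 of the 11 other ways of processing. PSMB2 was at -0.41 and -0.42 and PSMB4 at -0.21 and -0.17 in KD1 and KD2. PSMB1 was the exception in the ring, at 0.06 and 0.13 above NC, and its other probe read 0.58 and 0.35.

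Of the 3 interferon-inducible subunits, PSMB9 alone passed 1.5-fold. PSMB9, which replaces PSMB6 in the immunoproteasome, measured 1.82 in NC, 0.98 in KD1 and 1.05 in KD2. NC stood above both knockdowns, which differed from each other by 0.07, and the signal was 55.9% of NC in KD1 and 58.6% in KD2. Over 11 other ways of processing its KD1 difference ran from -0.89 to -0.19 and its KD2 difference from -0.92 to -0.48, and it stayed past 1.5-fold in 9 and 10 of them. The exceptions were the unscaled values for KD1 and spike-in scaling for both. PSMB10, which replaces PSMB7, measured 7.63 in NC, 7.23 in KD1 and 7.09 in KD2, differences of -0.40 and -0.54 that did not reach 1.5-fold, and its KD1 difference turned positive in 2 of the 11. PSMB8, which replaces PSMB5, was not well above background on any array, so the inducible set could be read from 2 of its 3 subunits.

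The alpha ring genes lay close to NC. Of 7 genes, 6 were above NC in KD1 (median 0.14) and 6 were below NC in KD2 (median -0.12), and the KD2 median was above 0 in 2 of the 11 other ways of processing. All 7 were higher in KD1 than in KD2, as were 33 of all 44 proteasome genes measured and all 6 genes of the ATPase ring. PSMA1 differed most, at 6.58 in NC, 6.77 in KD1 and 6.11 in KD2, with KD2 lowest and KD1 0.66 above it. PSMA3 was at 0.04 in KD1 and -0.30 in KD2, PSMA2 at 0.14 and -0.19, and PSMA7 at 0.17 and -0.05. PSMA5 was above NC in both, at 0.25 and 0.04, while PSMA4 and PSMA6 were within 0.12 of it. Of the chaperones that assemble the core, PSMG1, PSMG2 and PSMG4 lay between -0.20 and 0.19 of NC in both knockdowns on their brightest probes. A second PSMG2 probe read 0.50 in KD1 and 0.32 in KD2.

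**Figure D2:**
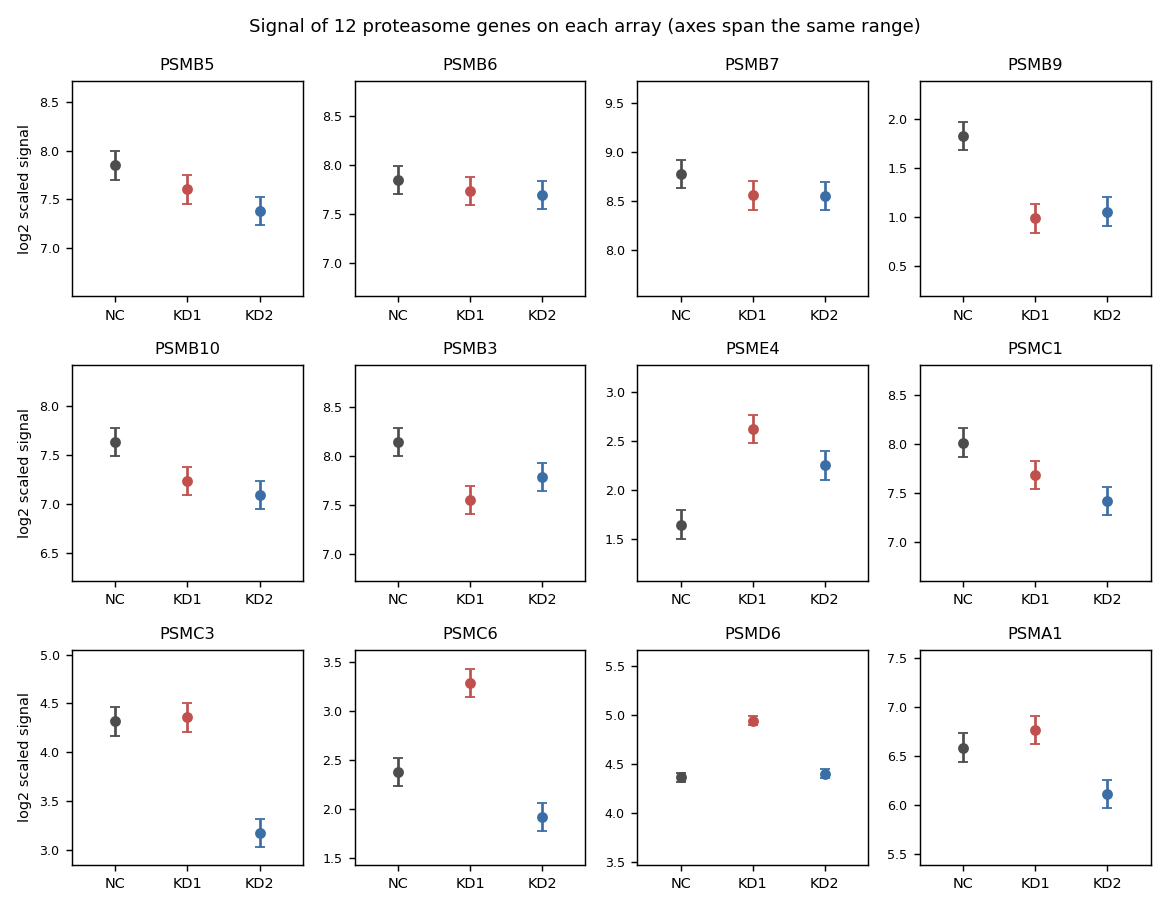
Log2 signal of 12 proteasome genes on the NC, KD1 and KD2 arrays relative to the 75th percentile of each array, with bars for the error estimated by the extraction software within an array. NC is highest for PSMB5, PSMB6, PSMB7, PSMB9 and PSMB10 and lowest for PSME4, while PSMC3 is low on the KD2 array and PSMC6 high on the KD1 array.

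The ATPases that unfold substrates held the widest differences between the knockdowns. PSMC6 measured 2.38 in NC, 3.29 in KD1 and 1.92 in KD2. KD1 was therefore above NC by 0.91, a fold of 1.88, while KD2 was below NC by less than 1.5-fold. PSMC3 measured 4.32 in NC, 4.36 in KD1 and 3.18 in KD2. KD2 alone was low, at 45.5% of NC. PSMC1 measured 8.02, 7.68 and 7.42 in NC, KD1 and KD2, so that both knockdowns were below NC and KD2 just past 1.5-fold at -0.60, a call kept in 4 of the 11 other ways of processing. Its other probe gave -0.17 and -0.50. PSMC2 lay at 0.19 and 0.07, PSMC4 at 0.07 and 0.02 and PSMC5 at 0.29 and -0.12 in KD1 and KD2, all short of 1.5-fold. A second PSMC2 probe read -0.55 and -0.10. The ring had a median of 0.13 in KD1 and -0.29 in KD2, and the KD2 value was 0.00 with spike-in scaling, with 3 genes on each side of NC.

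Between KD1 and KD2, 3 of the 44 genes were past 1.5-fold, all higher in KD1, beside 8.94% of 19544 genes that were higher and 9.66% that were lower. These were PSMC6 at 1.37, PSMC3 at 1.18 and PSMA1 at 0.66. The differences for PSMC6 ran from 1.27 to 1.73 and for PSMC3 from 1.08 to 1.53 under the other ways of processing. PSMA1 ran from 0.54 to 1.02, and the lowest value, short of 1.5-fold, was that of the mean over its probes, where its KD2 difference from NC was 0.06. Its second probe, above background on 2 arrays, read 1.03 in KD1 and 0.60 in KD2 against NC. Next came PSMD5, a chaperone of the ATPase ring, which measured 2.50 in NC, 2.93 in KD1 and 2.36 in KD2 on its brightest probe. Its other probes were below NC in both knockdowns, at -0.12 and -0.33 in KD1 and -0.05 and -0.41 in KD2. With the mean over its probes the KD1 difference from NC was -0.01, and KD1 exceeded KD2 by 0.20. PSMD10, another chaperone of the ATPase ring, measured 2.22, 2.14 and 2.70 on its brightest probe. It was the only one of the 5 largest differences that was lower in KD1. Its other probes were higher in KD1 than in KD2, at 1.26 against -0.27 and 0.09 against -0.44, and over the other ways of processing its difference ran from -0.66 to 0.50. In these differences the reagent and the array cannot be told apart.

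The 19S lid, which removes ubiquitin chains, lay above NC for 7 of 8 genes in both knockdowns, with medians of 0.18 in KD1 and 0.14 in KD2, the latter falling to -0.02 with median scaling. PSMD11 was at 0.42 and 0.49 above NC. PSMD3, PSMD12 and PSMD13 were at 0.14, 0.14 and 0.22 in KD1 and at 0.25, 0.17 and 0.11 in KD2, and PSMD8 was the exception at -0.08 and -0.18. PSMD14, the deubiquitinase of the lid, was at 0.13 and 0.06. PSMD6 measured 4.37 in NC, 4.95 in KD1 and 4.40 in KD2, with KD1 above NC by 0.58, just under the threshold, which it passed in 6 of the 11 other ways of processing. Its probe was spotted 10 times, and the SD between spots was 0.03 in NC, 0.04 in KD1 and 0.02 in KD2, with no overlap between KD1 and the other arrays. PSMD7, spotted equally often, measured 6.29 in NC, 6.59 in KD1 and 6.46 in KD2, with SDs of 0.04, 0.05 and 0.03. These SDs cover spotting within an array and not differences between cultures. The base scaffold genes PSMD1 and PSMD2 and the ubiquitin receptor PSMD4 were within 0.08 of NC in both knockdowns on their brightest probes. A second PSMD1 probe read -0.40 and -0.28, and a second PSMD2 probe -0.15 and -0.01.

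The median of the lid exceeded that of the beta ring by 0.40 in KD1 and 0.36 in KD2. This pair was not planned and was compared after the medians were known. The lid had the highest median of the subcomplexes in both knockdowns, so the size of the gap partly reflects that choice. A ratio within an array does not depend on how the array is scaled as a whole. Scalings that shift a whole array, which are among the 11 other ways of processing, could therefore not change it. Over those 11 its KD1 value ran from 0.18 to 0.47, and with quantile normalization it was 0.22. The KD2 value ran from 0.28 to 0.37. The lowest values, 0.18 and 0.28, were those taken relative to genes of like brightness. The 2249 genes as bright as the middle of the proteasome genes had medians of -0.08 in KD1 and -0.13 in KD2. Their mean signals lay between 4.56 and 7.49. The beta ring genes other than PSMB2 were brighter than that, so this set was not matched to the ring.

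**Figure D3:**
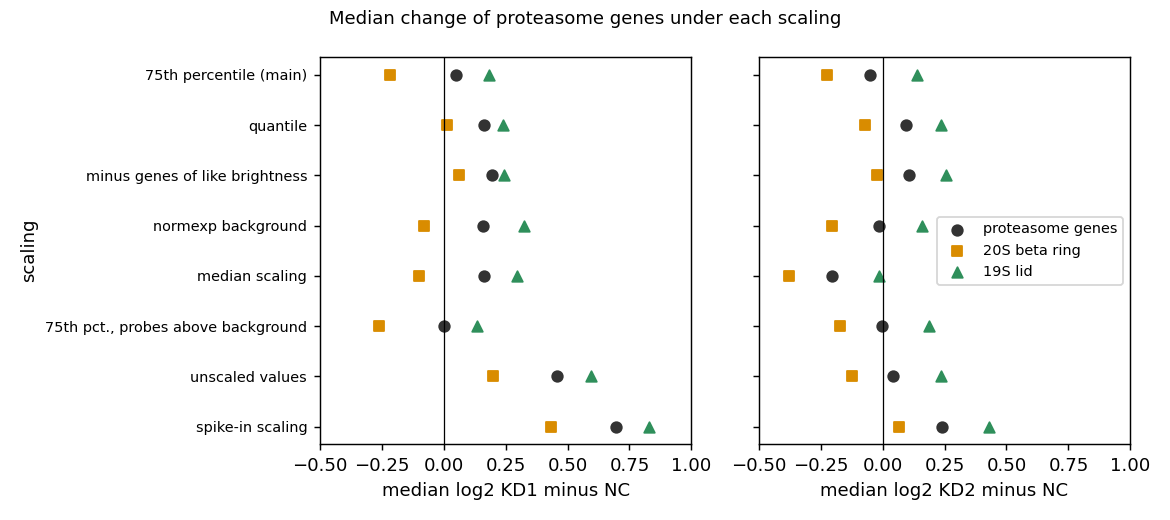
Median log2 difference from NC of all proteasome genes (circles), the beta ring (squares) and the lid (triangles) in KD1 and KD2 under 8 scalings. Spike-in scaling moves every median up, and the beta ring lies left of the lid in each row. Scalings that shift a whole array move the ring and the lid alike.

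Among the activators, PSME4, which encodes PA200, measured 1.64 in NC, 2.62 in KD1 and 2.25 in KD2. NC was lowest, and the differences were 0.98, a fold of 1.97, and 0.61, a fold of 1.52. A second PSME4 probe that was above background on all arrays was nearly flat, at -0.05 and 0.09, so the difference rests on 1 of the probes of the gene. With the mean over probes it was 0.23 in KD1 and 0.18 in KD2. The KD2 difference of the brightest probe passed 1.5-fold in 8 of the 11 other ways of processing and the KD1 difference in 10. PSME1 and PSME2, the interferon-inducible PA28 subunits, were at -0.24 and -0.11 in KD1 and -0.39 and -0.32 in KD2. PSME3, the nuclear PA28 form, was at 0.03 and 0.17, and PSMF1, a proteasome regulator, at 0.17 and 0.10.

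Probes of the same gene did not always give the same sign. Of 12 genes with at least 2 probes above background on all arrays, 5 had all probes on the same side of NC in KD1 and 9 in KD2. The spread between probes was 0.48 for the median gene in KD1 and 0.20 in KD2. PSMD10 had the widest spread, from -0.53 to 1.70 in KD1 and from -1.06 to 0.48 in KD2, so the gene had no single direction. Its brightest probe, used above, was the middle one in KD1 and the highest in KD2. The 4 probes of PSMF1 lay within 0.18 of each other in KD1 and 0.14 in KD2.

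**Figure D4:**
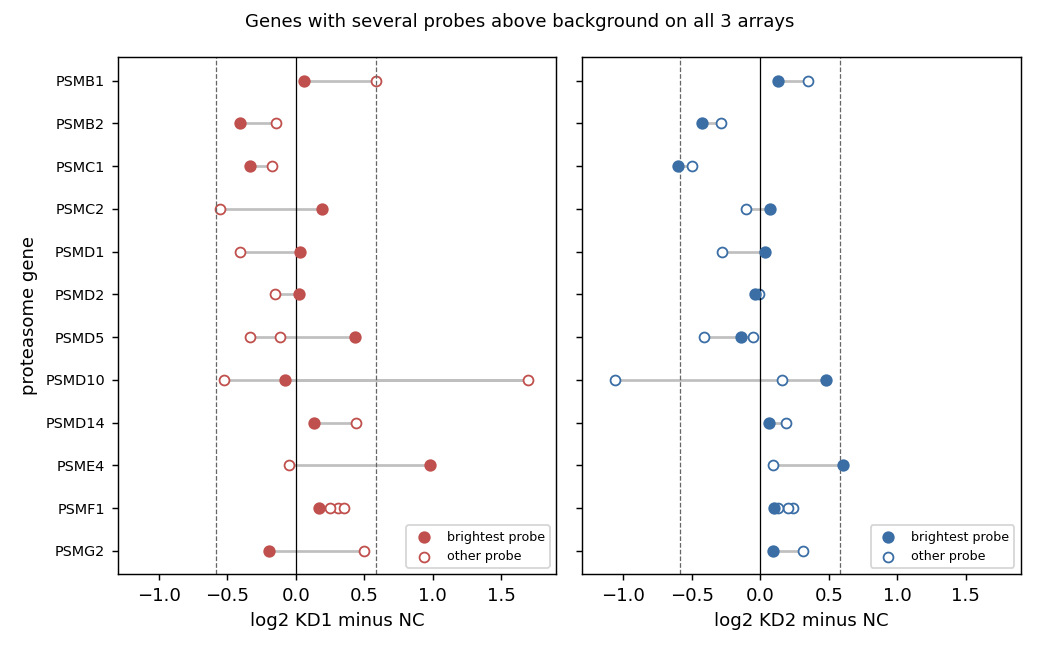
Log2 difference from NC in KD1 and KD2 for every probe of the 12 proteasome genes with several probes above background on all arrays, with the brightest probe filled and dashed lines at 1.5-fold. PSMD10 and PSME4 have probes on both sides of 0 in KD1, whereas PSMF1 probes lie close together.

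Other large complexes were read in the same way, for context. The CCT chaperonin, which folds actin and tubulin, had medians of 0.10 in KD1 and -0.03 in KD2 over 8 genes. The COP9 signalosome, whose subunits resemble those of the lid, had -0.15 and -0.12 over 10 genes, and the translation initiation factor eIF3, also related to the lid, had -0.09 and -0.23 over 13. Complex I of the respiratory chain had -0.23 and -0.32 over 36 genes, and cytosolic ribosomal proteins -0.32 and -0.21 over 81. With spike-in scaling every one of these KD1 medians was above 0. Past 1.5-fold in KD1 were 2 lower and 1 higher of 81 ribosomal protein genes, 2 and 2 of 36 complex I genes, 0 and 0 of 10 COP9 genes, 0 and 1 of 13 eIF3 genes, and 1 and 1 of 8 CCT genes. In KD2 the counts in the same order were 5 and 1, 6 and 1, 2 and 0, 1 and 1, and 1 and 0. The shares of all genes given above, 14.0% and 12.4% in KD1 and 10.6% and 9.68% in KD2, apply here too.

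**Figure D5:**
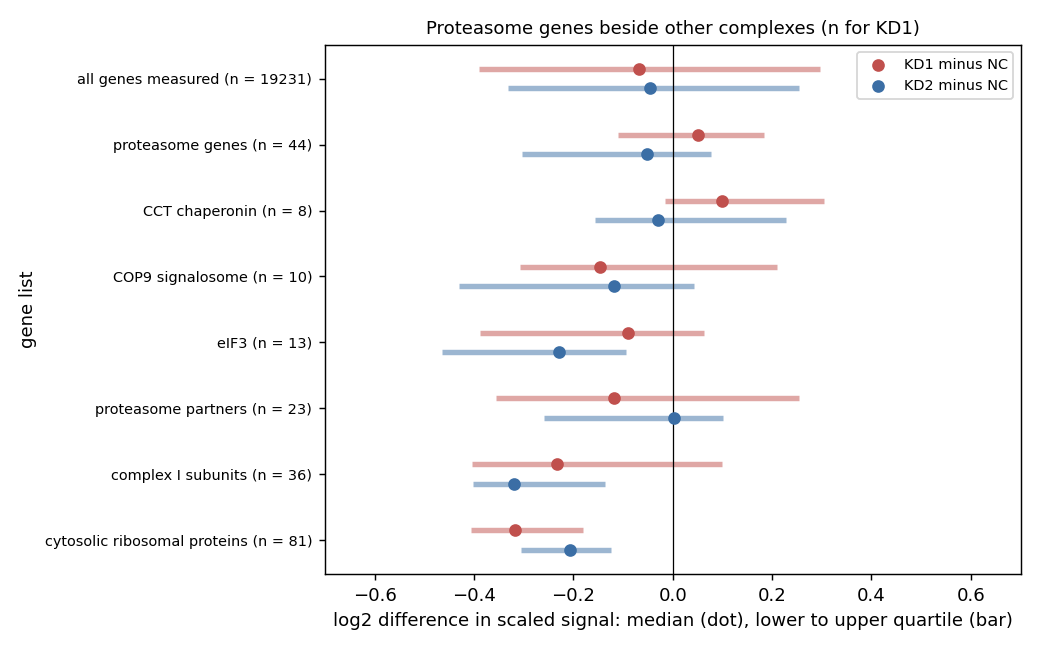
Median log2 difference from NC (dots) with the lower to upper quartile (bars) in KD1 and KD2 for all genes measured, the proteasome genes and other gene lists. The proteasome medians were 0.05 and -0.05 and the ribosomal protein medians -0.32 and -0.21, while with quantile normalization they were 0.16 and 0.09 against 0.03 and 0.02.

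Of 25 genes for proteasome partners outside the naming rule, 23 were measured, with medians of -0.12 in KD1 and 0.00 in KD2. In KD1, 2 were lower and 1 was higher past 1.5-fold, and in KD2 the counts were again 2 and 1. NFE2L1 measured 3.83, 4.40 and 4.08 and was highest in KD1 without reaching 1.5-fold, and NFE2L2 was not well above background on any array.

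Promoter sequence was available from RefSeq (GRCh38.p14) for 42 of the 48 genes, as 300 bases from 250 before to 50 after a start site. The antioxidant response element core, TGACNNNGC on either strand, which NFE2L1 and NFE2L2 read, was present for 15 of the 42 genes (35.7%) and for 16.1% of 27305 genes with a promoter, counting a gene when any of its listed promoters matched. The interferon-stimulated response element core, a pair of GAAA repeats 2 bases apart, was present for 7 of the 42 (16.7%) and for 4.38% of all. Those 7 were PSMB4, PSMB8, PSMB10, PSMA4, PSME1, PSME2 and PSMG4, and the 6 of them that were measured had median differences of -0.16 in KD1 and -0.25 in KD2, against 0.13 and 0.02 for the 33 without. The 15 genes with the antioxidant core had medians of 0.07 and 0.02, and the 24 without had 0.04 and -0.06. A match describes the letters and does not show that a factor binds there. The promoters of the inducible subunits and of PSME4 are printed 5′ to 3′ on the gene's strand with these matches in capitals. They lie at chr6:32843998-32844297 for PSMB8 (minus strand), chr6:32853942-32854241 for PSMB9 (plus), chr16:67936801-67937100 for PSMB10 (minus) and chr2:53970944-53971243 for PSME4 (minus). PSMB8 has another listed promoter, at chr6:32844630-32844929, with no match to either core.
PSMB8: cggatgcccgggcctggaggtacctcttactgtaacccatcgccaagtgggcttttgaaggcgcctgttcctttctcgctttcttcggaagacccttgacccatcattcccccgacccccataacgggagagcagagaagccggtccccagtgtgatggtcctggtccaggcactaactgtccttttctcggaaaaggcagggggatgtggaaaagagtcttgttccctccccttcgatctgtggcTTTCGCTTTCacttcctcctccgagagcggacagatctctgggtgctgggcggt
PSMB9: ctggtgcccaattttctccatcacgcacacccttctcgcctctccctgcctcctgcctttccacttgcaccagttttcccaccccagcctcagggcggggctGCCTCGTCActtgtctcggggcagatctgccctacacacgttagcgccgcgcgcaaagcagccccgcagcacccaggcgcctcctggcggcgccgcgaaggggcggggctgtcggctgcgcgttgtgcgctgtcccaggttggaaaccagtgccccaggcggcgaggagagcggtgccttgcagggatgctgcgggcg
PSMB10: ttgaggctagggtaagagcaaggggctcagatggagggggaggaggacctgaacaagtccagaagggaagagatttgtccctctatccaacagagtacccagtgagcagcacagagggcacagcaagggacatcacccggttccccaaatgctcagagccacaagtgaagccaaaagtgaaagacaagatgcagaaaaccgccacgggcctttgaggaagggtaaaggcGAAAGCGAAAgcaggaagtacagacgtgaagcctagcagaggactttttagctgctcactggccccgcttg
PSME4: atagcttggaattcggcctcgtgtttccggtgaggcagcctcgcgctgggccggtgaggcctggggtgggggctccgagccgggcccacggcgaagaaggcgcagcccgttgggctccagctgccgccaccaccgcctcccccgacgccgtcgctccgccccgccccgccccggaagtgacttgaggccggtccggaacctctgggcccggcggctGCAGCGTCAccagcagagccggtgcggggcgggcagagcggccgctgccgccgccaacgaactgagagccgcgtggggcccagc
The capitals mark an interferon-stimulated core for PSMB8 and PSMB10 and an antioxidant core for PSMB9 and PSME4. PSMB9, the inducible subunit with the largest difference, had no interferon-stimulated core in these 300 bases.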

How the data were processed

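The deposited scanner files hold a processed signal intensity for each spot, which the authors obtained with Agilent Feature Extraction 10.7.1.1 per the submitters' processing notes, in 3 arrays of 62976 spots on 1 slide. Coordinates are hg19 as given in the files. The series table of unscaled intensity was used as an alternative.

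Spots marked as outliers were left out (130 of 58201 probes), log2 values of repeated spots were averaged by probe, and each array was then centred on its 75th percentile over the probes usable on all arrays. The brightest probe stood for a gene. A gene was measured when well above background on at least 1 array compared, and a dim value was raised to the lowest signal above background. Differences past 1.5-fold, the fold in the study's methods, were counted without a test. The number of arrays limits the precision.

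The genes named in full were those past 1.5-fold in 1 direction in both KD1 and KD2, the 5 whose KD1 and KD2 values lay farthest apart, PSMB5 to PSMB10, those not above background and those whose probes disagreed. Any other member could be named. Outside the members, the rule took PRMT1 and partners past 1.5-fold the same way, and NFE2L1 and NFE2L2 were named after their values were seen. Some results are not reported here. The members and lists were chosen with earlier results of these data known. The alternatives, 13 in all, used limma 3.58.1 (R 4.3.3) for normexp with an offset of 50, and Python 3.11.15 with numpy 2.4.6 and pandas 2.3.3 otherwise. The counting step was tested on simulated data.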

Additional observations from a re-analysis of the deposited data

How the results depend on the processing

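The counts are small, and several of them moved by over 1.5 times with the processing. The cause was not tested. With normexp background correction 1 gene was lower in KD1, 0 were higher in KD2 and 5 were past 1.5-fold between the knockdowns. Quantile normalization gave 1 lower in KD1 and 2 higher in KD2, and the change relative to genes of like brightness gave the same 1 and 2. Median scaling gave 1 lower in KD1, 7 lower and 0 higher in KD2 and 9 between the knockdowns. Spike-in scaling on 8 control probes, which put the median of all genes at 0.58 in KD1 and 0.24 in KD2, gave 0 lower and 30 higher in KD1, beside 9512 of all genes higher, 1 lower and 3 higher in KD2, 10 between the knockdowns and a KD1 median of 0.70 for the proteasome genes. Relative to all genes that median stayed 0.12 higher, as with the 75th percentile. The unscaled series table gave 0 lower and 12 higher in KD1, 2 higher in KD2, 9 between the knockdowns and a KD1 median of 0.46. Averaging all probes per gene gave 0 higher in KD2. A fold of 2 left 0 lower and 0 higher in KD1 and 1 lower and 0 higher in KD2. With spike-in scaling the KD1 difference of PSMB3 turned to 0.0565. The other 57 values of counts and medians moved by at most 1.5 times or, for medians, by less than the SD of 0.33 of the difference between KD1 and KD2 over the proteasome genes. No paired analysis was possible because each group holds 1 array and no test was run.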

Other observations

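The following genes were chosen after their values were seen and are given as values. TAP1, the peptide transporter that neighbours PSMB9, measured 4.41 in NC, 4.99 in KD1 and 4.60 in KD2, above NC by 0.59 in KD1, past 1.5-fold, and by 0.19 in KD2. TAP2, its partner, measured 2.43, 2.99 and 2.27, and TAPBP, which joins the transporter to MHC class I, measured 4.19, 3.81 and 4.05. IRF1, a transcription factor of interferon signalling, measured 1.30, 0.64 and 1.35, with KD1 alone low. B2M, the light chain of MHC class I, measured 5.25, 5.43 and 5.10, within 1.5-fold of NC in both.

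Antisense genes named after proteasome genes were read from probes of their own. PSMG3-AS1 measured 6.48 in NC, 5.39 in KD1 and 6.04 in KD2. PSMD6-AS2 measured -2.76, -1.75 and -1.08 and was above background on 2 of the 3 arrays. PSMA3-AS1, PSMB8-AS1 and PSMD5-AS1 stayed within 1.5-fold of NC in both knockdowns.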
